A study of Mus musculus with 3 samples.

Results

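The TGF-beta pathway genes Tgfb1, Itgb5, Tgfbr1, Tgfbr2, Smad2, Smad3, Smad4, Smad7, Ski and Skil were taken by name from single-cell counts of mouse brain myeloid cells. All 10 were listed in each of the 3 count tables, among 11979 genes listed in all tables and 14221 listed in any. The tables hold cells of adult mouse brain, sorted as CD11b+ CD45+, with 1 library from an MHC class II-deficient mouse, labelled as almost lacking CD4 T cells, and 2 libraries from wild type mice (WT 1 and WT 2). MHC class II molecules present peptides to CD4 T cells, and the design asked how brain myeloid cells differ where those T cells are nearly missing. The labels give no strain, sex, exact age or allele, and with 1 deficient library no spread between deficient animals was measured.

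TGF-beta is secreted as a latent complex, and integrins that contain the alpha v chain help to free the active ligand. The ligand binds the type II receptor, which activates the type I receptor. That receptor phosphorylates Smad2 and Smad3, which enter the nucleus together with Smad4, while Smad7 blocks the receptor and Ski and Skil repress Smad target genes. In mice the pathway maintains the adult identity of microglia, the resident macrophages of the brain. Much of its control acts on proteins, so transcript counts do not measure its activity.

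The tables held 2278 barcodes in the deficient library, 4589 in WT 1 and 4815 in WT 2, with 6616662, 16230216 and 17293844 unique molecular identifiers (UMIs, counts of single captured transcripts). Filtering kept 2257 deficient, 4340 WT 1 and 4667 WT 2 cells, and the median cell held 2824, 3384.5 and 3338 UMIs in these libraries. The class II chains H2-Aa, H2-Ab1 and H2-Eb1 were not listed in the deficient table and were listed in both WT tables, which matches the genotype label. Of the retained barcodes, 18 were shared by the deficient library and WT 1, 13 by the deficient library and WT 2, and 28 by WT 1 and WT 2. Cells with microglial markers made up 97.7% of deficient, 90.0% of WT 1 and 94.3% of WT 2 cells, and they are called microglia below. Summed over 10 markers, the microglial level in them was 33288 in counts-per-million units (CPM) in the deficient library, 33337 in WT 1 and 35371 in WT 2. All CPM values were made by summing UMIs over the cells of a class in 1 library and scaling to the total of that class.

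Several measures differed between deficient and WT microglia, and their part in the results below was not tested. The WT libraries also differed from each other in several of them. The labels do not say whether the mice were processed on the same day. The summed level of 11 neutrophil markers was 49.6 CPM in deficient microglia, against 1210 in WT 1 and 634.2 in WT 2, with UMIs for 10, 11 and 11 of the markers. Border macrophage markers were at 169.7 CPM in deficient microglia, against 134.7 and 151.8 in WT 1 and WT 2, with UMIs for 6, 10 and 10 of 10. Their order did not hold in the intermediate immediate early class described below. There they were at 177.8 CPM in deficient cells, against 159.9 in WT 1 and 186.5 in WT 2. Markers of non-immune brain cells summed to 126.5 CPM in deficient microglia, against 59.6 and 56.5 in WT. The gap was smaller in microglia of at least 1000 UMIs. Over the 3 immediate early classes described below, they summed to 74.4 to 87.8 CPM in the deficient library, against 57.7 to 63.4 in WT 1 and 52.8 to 68.0 in WT 2. The immediate early list held Fos, Fosb, Egr1, Ier2, Atf3, Nr4a1, Dusp1, Btg2, Jun, Junb and Zfp36. These genes are switched on rapidly by stimuli, tissue digestion among them. The list summed to 6982 CPM in deficient microglia, against 16205 in WT 1 and 10825 in WT 2. Of its 11 genes edgeR called 8 lower, against 6.35% of all genes tested, while DESeq2 called 1 lower. Most deficient microglia lay in clusters 1 and 8 (1590 and 301 cells), with 62 and 7 WT 1 cells and 152 and 13 WT 2 cells. Clusters 0 and 2 held 20 and 18 deficient cells, against 1232 and 567 of WT 1 and 631 and 1219 of WT 2.

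Of the 10 genes, Smad7, Itgb5, Tgfb1 and Smad2 were lower in deficient than in WT microglia and none was higher (edgeR quasi-likelihood test on summed UMIs, Benjamini-Hochberg adjusted p under 0.05 over 11864 genes). Over all genes tested, 6.35% were called lower and 1.52% higher. The median log2 fold change was -0.21 over the 10 genes and -0.0013 over all genes tested. Only the WT pair gives the test a measured spread (1 residual degree of freedom), and the single deficient library is taken to vary as much. DESeq2 kept the calls of Smad7 and Tgfb1 only.

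**Figure D1:**
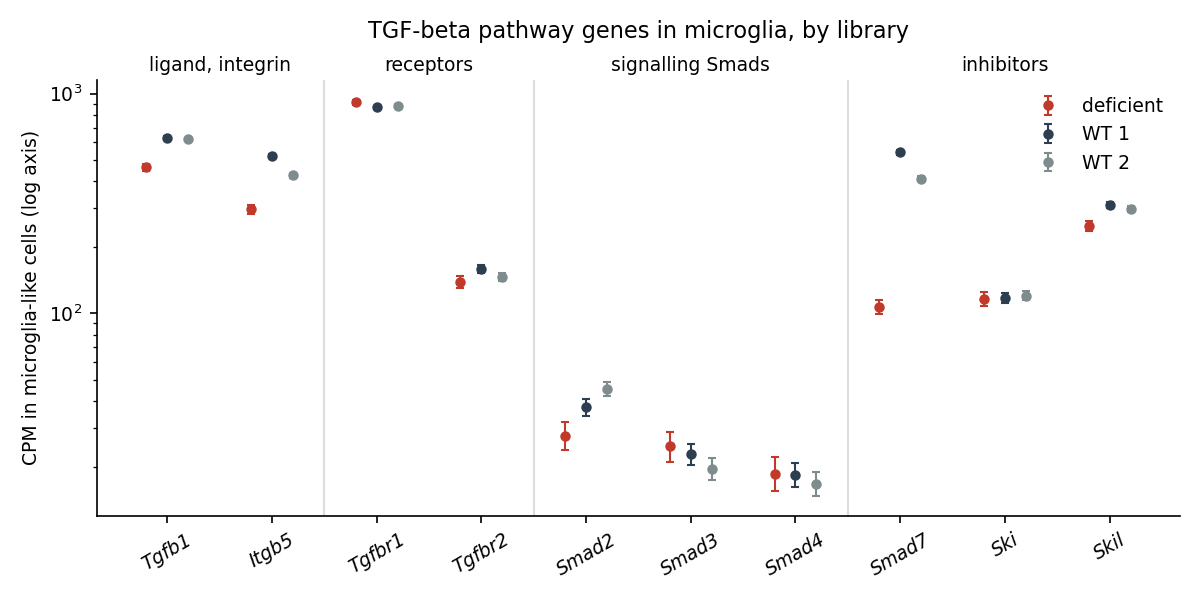
Level of each gene in microglia of the deficient, WT 1 and WT 2 libraries, in CPM on a log axis. Points are single libraries and bars are exact Poisson 95% intervals of the summed UMIs, which cover counting error only. Smad7 was at 107.1 CPM in the deficient library, against 539.3 and 410.4 CPM in WT 1 and WT 2, and the deficient points of Tgfb1, Itgb5 and Smad2 also lie under both WT points.

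Tgfb1 encodes the TGF-beta 1 ligand and lies at chr7:25687002-25705077 on the plus strand (mm10). It was at 462.9 CPM in deficient microglia, against 627.9 CPM in WT 1 and 618.0 CPM in WT 2. The WT values lay close together and the deficient value lay under both. The log2 fold change was -0.42 (SE 0.10, adjusted p = 0.0228, edgeR), a level 0.747 times that of WT. Over all retained cells in place of microglia the log2 fold change of Tgfb1 was -0.39 and was not called (adjusted p = 0.0819, edgeR).

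Itgb5 encodes integrin beta 5, which pairs with alpha v, and lies at chr16:33829665-33949338 on the plus strand. It was at 296.9 CPM in deficient microglia, against 520.7 CPM in WT 1 and 424.5 CPM in WT 2. The deficient value lay under both WT values, which themselves differed by more than those of Tgfb1. The log2 fold change was -0.66 (SE 0.12, adjusted p = 0.00323, edgeR). DESeq2 gave a value of the same size without a call (-0.66, adjusted p = 0.111).

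The promoters of Tgfb1 and Itgb5 are printed because these are the members called lower for which the promoter table gave a sequence that could be shown. Each is the 250 bases before the RefSeq start on the plus strand of GRCm38.p6. Capitals mark GTCT or its reverse complement AGAC, the core of the Smad binding element, counted on both strands. The sequence of Tgfb1 covers chr7:25686752-25687001 and that of Itgb5 chr16:33829415-33829664.
Tgfb1: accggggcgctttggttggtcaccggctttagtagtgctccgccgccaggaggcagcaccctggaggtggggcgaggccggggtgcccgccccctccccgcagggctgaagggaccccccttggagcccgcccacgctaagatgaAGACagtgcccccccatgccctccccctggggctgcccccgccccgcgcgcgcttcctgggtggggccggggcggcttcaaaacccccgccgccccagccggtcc
Itgb5: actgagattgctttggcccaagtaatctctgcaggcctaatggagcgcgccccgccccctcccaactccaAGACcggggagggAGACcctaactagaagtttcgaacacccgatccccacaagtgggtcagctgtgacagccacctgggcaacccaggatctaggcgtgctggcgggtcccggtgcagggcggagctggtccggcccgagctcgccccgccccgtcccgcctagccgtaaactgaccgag
Tgfb1 held 1 match and Itgb5 held 2. At least 1 match was found in 82.9% of 32851 promoters of this length, so a match is common. TGANTCA, a motif of the AP-1 factors to which Fos and Jun belong, had no match in either and was found in 6.75% of promoters. Of the bases, 75.2% in Tgfb1 and 65.2% in Itgb5 were G or C. A match in these letters is a description and not a measured binding site.

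The receptor genes were not called in microglia. Tgfbr1, the type I receptor, was at 913.4 CPM in deficient microglia, against 865.1 CPM in WT 1 and 879.4 CPM in WT 2. The deficient value was the highest of the 3, with a log2 fold change of 0.07 (95% interval -0.14 to 0.29, adjusted p = 0.774, edgeR). Tgfbr2, the type II receptor, was at 139.0 CPM in deficient microglia, against 158.8 and 146.8 CPM in WT 1 and WT 2. Its log2 fold change was -0.13 (95% interval -0.31 to 0.06, adjusted p = 0.505, edgeR). Tgfbr1 lies at chr4:47353222-47414931 on the plus strand and Tgfbr2 at chr9:116084293-116175360 on the minus strand.

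Among the Smads that carry the signal, Smad2 was at 27.7 CPM in deficient microglia, against 37.5 CPM in WT 1 and 45.4 CPM in WT 2. The deficient value lay under both WT values, and the log2 fold change was -0.58 (SE 0.15, adjusted p = 0.0265, edgeR). The Smad2 call was lost with DESeq2 (adjusted p = 0.276), limma voom (0.0564), all retained cells (0.0703) and cells thinned to 1000 UMIs (0.160). It rests on 178 UMIs in the deficient library, against 522 in WT 1 and 713 in WT 2.

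Smad3, the other receptor-activated Smad of the pathway, was at 24.9 CPM in deficient microglia, against 22.8 and 19.6 CPM in WT 1 and WT 2. The deficient value was the highest and the difference was not called (log2 fold change 0.24, 95% interval -0.04 to 0.52, adjusted p = 0.396, edgeR). Smad4, their common partner, was at 18.6 CPM in deficient microglia, against 18.4 and 16.8 CPM in WT. Its log2 fold change was 0.10 (95% interval -0.20 to 0.39, adjusted p = 0.790, edgeR). Smad2 and Smad4 lie on chromosome 18 and Smad3 on chromosome 9 (chr9:63646767-63757994, minus strand).

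Smad7 had the widest difference of the 10 genes. This inhibitory Smad, itself induced by TGF-beta, lies at chr18:75367529-75395935 on the plus strand. It was at 107.1 CPM in deficient microglia, against 539.3 CPM in WT 1 and 410.4 CPM in WT 2. The deficient level was 0.227 times that of WT, or -2.14 in log2 fold change (SE 0.15, adjusted p = 5.31e-07, edgeR), and the WT libraries were far closer to each other than to the deficient library. By ratios of CPM plus 1, the log2 value was -1.93 without WT 1 and -2.32 without WT 2. Smad7 was called lower under each of the 11 alternatives with a test, with log2 values between -2.18 and -2.07 in those.

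Fewer deficient microglia held a Smad7 transcript. After thinning each cell to 1000 UMIs, which left out 45 deficient, 60 WT 1 and 61 WT 2 microglia under that depth, 9.22% of deficient microglia had a Smad7 UMI, against 36.1% in WT 1 and 30.5% in WT 2. Exact Clopper-Pearson 95% intervals were 8.03 to 10.5 in the deficient library, against 34.6 to 37.6 and 29.1 to 31.9 in WT 1 and WT 2. These intervals take the cells of a library as the trials, so they cover counting error only and no spread between animals. Those of WT 1 and WT 2 did not overlap each other either. Before thinning the shares were 23.2% in deficient, against 66.9% and 61.4% in WT microglia. In neutrophils, where Smad7 was low, the thinned share was 0 of 15 deficient cells (interval up to 21.8%), against 2.23% in WT 1 and 1.63% in WT 2. Median depth was 2825.5 UMIs in deficient microglia, against 3374 and 3324 in WT microglia, and 1708 in deficient neutrophils, against 2985.5 and 2978 in WT neutrophils.

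The co-repressors Ski and Skil were not called. Ski was at 116.1 CPM in deficient microglia, against 118.1 CPM in WT 1 and 120.6 CPM in WT 2, with a log2 fold change of -0.03 (95% interval -0.21 to 0.14, adjusted p = 0.894, edgeR). Skil was at 249.0 CPM in deficient microglia, against 311.2 and 298.7 CPM in WT 1 and WT 2. The deficient Skil value lay under both WT values, but the difference did not pass (log2 fold change -0.28, SE 0.10, adjusted p = 0.107, edgeR). Ski lies at chr4:155154075-155222592 on the minus strand and Skil at chr3:31095058-31122577 on the plus strand.

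The order of the libraries held inside microglial clusters for some of these genes. In 10 clusters with at least 15 deficient cells, the deficient level lay under both WT levels in 10 for Smad7, in 10 for Itgb5, in 8 for Tgfb1 and in 6 for Smad2, which lay above both WT levels in 2. Of the genes that were not called, Ski lay under both in 6 and above both in 0. Tgfbr2 lay under both in 5 and above both in 5, Skil in 4 and 3, and Tgfbr1, Smad3 and Smad4 each in 4 and 4. In cluster 1, with most deficient cells, Smad7 was at 78.6 CPM in deficient cells, against 170.0 CPM in WT 1 and 152.7 CPM in WT 2. In cluster 0, where Smad7 was among the 10 leading genes, it was at 187.6 CPM in 20 deficient cells, against 750.9 and 606.5 CPM in WT 1 and WT 2. The clusters were built from the same cells and genes, and the same count was not made over all genes, so these counts are a description.

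Microglia were then split by their immediate early UMIs, because that list was lower in the deficient library than in both WT libraries. WT 1 and WT 2 also differed from each other in it. After thinning to 1000 UMIs, cells with no UMI of the list were taken as without, and cells with at least 3 as with immediate early transcripts. The rest were called intermediate. The class without them held 523 deficient, 149 WT 1 and 363 WT 2 cells, which were 24.2%, 3.87% and 8.36% of thinned microglia. The class with them held 857 deficient, 3062 WT 1 and 2857 WT 2 cells, or 39.7%, 79.6% and 65.8%.

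In microglia without immediate early transcripts, Smad7 and Itgb5 were lower in the deficient library and none of the 10 genes was higher. Over 9100 genes tested there, 3.15% were called lower and 0.462% higher (edgeR, same rule). Smad7 was at 74.4 CPM in deficient cells, against 270.0 CPM in WT 1 and 326.9 CPM in WT 2. The log2 fold change was -1.995 (SE 0.19, adjusted p = 7.61e-24, edgeR), and the deficient value was again far under both WT values. Itgb5 was at 326.6 CPM in deficient cells, against 552.3 and 422.4 CPM in WT (log2 fold change -0.51, SE 0.14, adjusted p = 0.0139, edgeR).

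Tgfb1 in the same class was at 449.7 CPM in deficient cells, against 574.8 and 637.7 CPM in WT 1 and WT 2, and did not pass (log2 fold change -0.41, adjusted p = 0.0659, edgeR). It was called when the class was instead the cells below the first quartile of the immediate early share of each library (-0.39, adjusted p = 0.0107, edgeR). Smad3 was at 30.3 CPM in deficient cells, against 18.4 and 16.2 CPM in WT, and the wide interval of its log2 fold change of 0.87 ran from 0.15 to 1.60 (adjusted p = 0.270, edgeR). The other 6 genes had adjusted p between 0.167 and 0.964. The list that defined the class was not level in it: it summed to 599.8 CPM in deficient cells, against 1270 in WT 1 and 1161 in WT 2. Neutrophil markers summed to 49.4 CPM in deficient cells of this class, against 1143 and 629.6 in WT.

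In microglia with immediate early transcripts, Smad7, Itgb5, Tgfb1 and Smad2 were lower in the deficient library. Over 11678 genes tested, 5.99% were called lower and 2.59% higher. Smad7 was at 148.8 CPM in deficient cells, against 586.3 CPM in WT 1 and 441.5 CPM in WT 2 (log2 fold change -1.74, SE 0.12, adjusted p = 6.89e-43, edgeR). Itgb5 was at 248.6 CPM in deficient cells, against 515.7 and 419.1 CPM in WT (log2 fold change -0.87, adjusted p = 2.17e-12, edgeR). For both genes the deficient value lay under both WT values.

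Tgfb1 was at 470.8 CPM in deficient cells with immediate early transcripts, against 631.8 and 607.7 CPM in WT (log2 fold change -0.35, adjusted p = 0.0235, edgeR). Smad2 was at 25.2 CPM in deficient cells, against 38.4 and 45.6 CPM in WT (log2 fold change -0.69, adjusted p = 0.00210, edgeR). DESeq2 called Smad7 and Itgb5 in this class but neither Tgfb1 (adjusted p = 0.140) nor Smad2 (0.463). In cells without immediate early transcripts DESeq2 called Smad7 only.

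**Figure D2:**
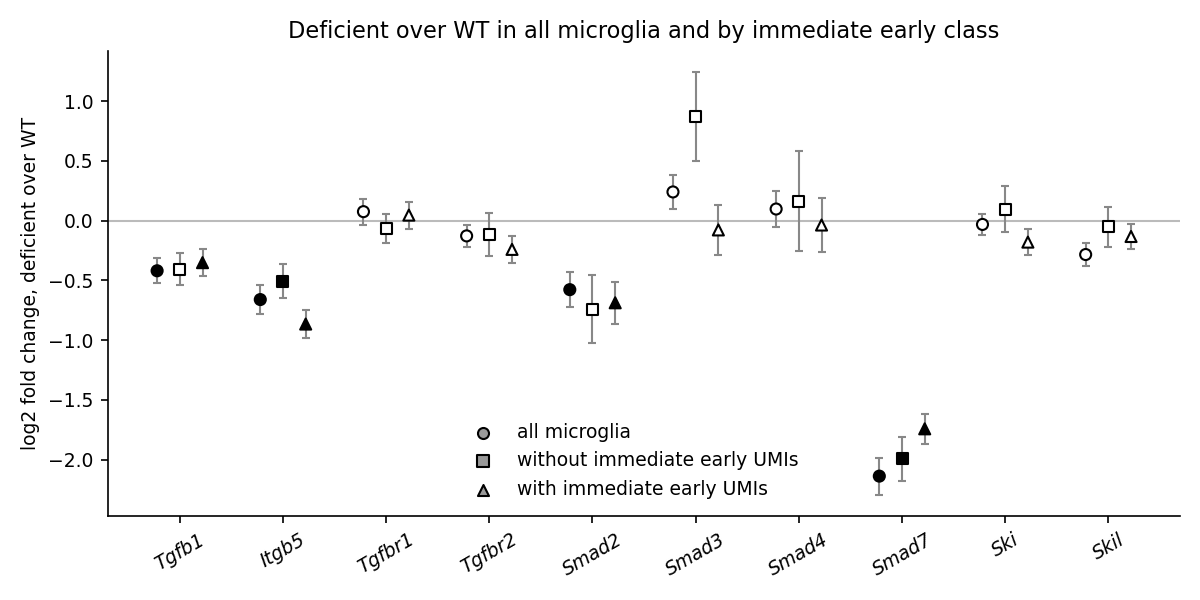
Log2 fold change of the deficient library over WT for each gene, in all microglia (circles), microglia without (squares) and with (triangles) immediate early UMIs. Bars are standard errors derived from the edgeR fold change and F statistic, and filled symbols were called at an adjusted p under 0.05. Smad7 lies at -2.14, -1.995 and -1.74 in the 3 cell sets, while the symbols of Tgfbr1, Smad4 and Ski lie near 0.

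Within the libraries, Smad7 and Skil were higher in microglia with than in those without immediate early transcripts, and the other 8 genes were not called (edgeR on 6 sums with library as a block). Over 9468 genes tested, 4.16% were called higher and 0.993% lower. Smad7 was at 148.8 CPM with and 74.4 CPM without them in the deficient library, 586.3 and 270.0 in WT 1, and 441.5 and 326.9 in WT 2. The log2 change was 1.0 in the deficient library, 1.12 in WT 1 and 0.43 in WT 2, so WT 2 had the smallest of the 3. Across libraries it was 0.82 (SE 0.08, adjusted p = 8.93e-15, edgeR), and it was 1.13 without WT 2 and 0.68 without WT 1.

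Skil was at 294.5 CPM with and 204.1 CPM without immediate early transcripts in the deficient library, 333.0 and 237.3 in WT 1, and 333.1 and 204.7 in WT 2. Skil was higher in the class with them in 3 of 3 libraries, by 0.65 on the log2 scale (SE 0.07, adjusted p = 2.94e-12, edgeR). Ski, its close relative, had a log2 change of -0.06 (95% interval -0.23 to 0.12). Of the receptors, Tgfbr1 was at 851.3 CPM with and 911.3 CPM without in the deficient library, 841.0 and 1031 in WT 1, and 859.5 and 938.7 in WT 2. It was lower in the class with them in each library but was not called (log2 change -0.11, adjusted p = 0.352, edgeR). Splitting on the heat shock genes as well gave -0.18 with a call (adjusted p = 0.0286, edgeR).

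A finer split showed different courses for the inhibitors. Smad7 in deficient microglia was at 74.4 CPM at 0 immediate early UMIs per 1000, 94.5 at 2, 124.2 at 3 to 5 and 176.4 at 11 or more. In WT 1 the same steps gave 270.0, 411.9, 488.1 and 637.4 CPM, and in WT 2 they gave 326.9, 379.7, 396.8 and 466.7. The level was higher at each of these steps than at the one before, but the rise was not unbroken over all steps. Of the steps left out, that at 1 UMI had 73.6 CPM in the deficient library, against 272.0 in WT 1 and 322.8 in WT 2. These values were close to the level at 0, slightly under it in the deficient library and WT 2. At 6 to 10 UMIs WT 2 had 481.0 CPM, above its level at 11 or more. At every step the deficient value was the lowest of the 3. Skil in deficient microglia was at 204.1 CPM at 0 and 221.3 at 6 to 10 UMIs, then 431.7 at 11 or more. It was at 237.3, 230.3 and 469.9 CPM at those steps in WT 1 and at 204.7, 239.0 and 543.1 in WT 2. The higher Skil level was thus found at the last step in each library.

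**Figure D3:**
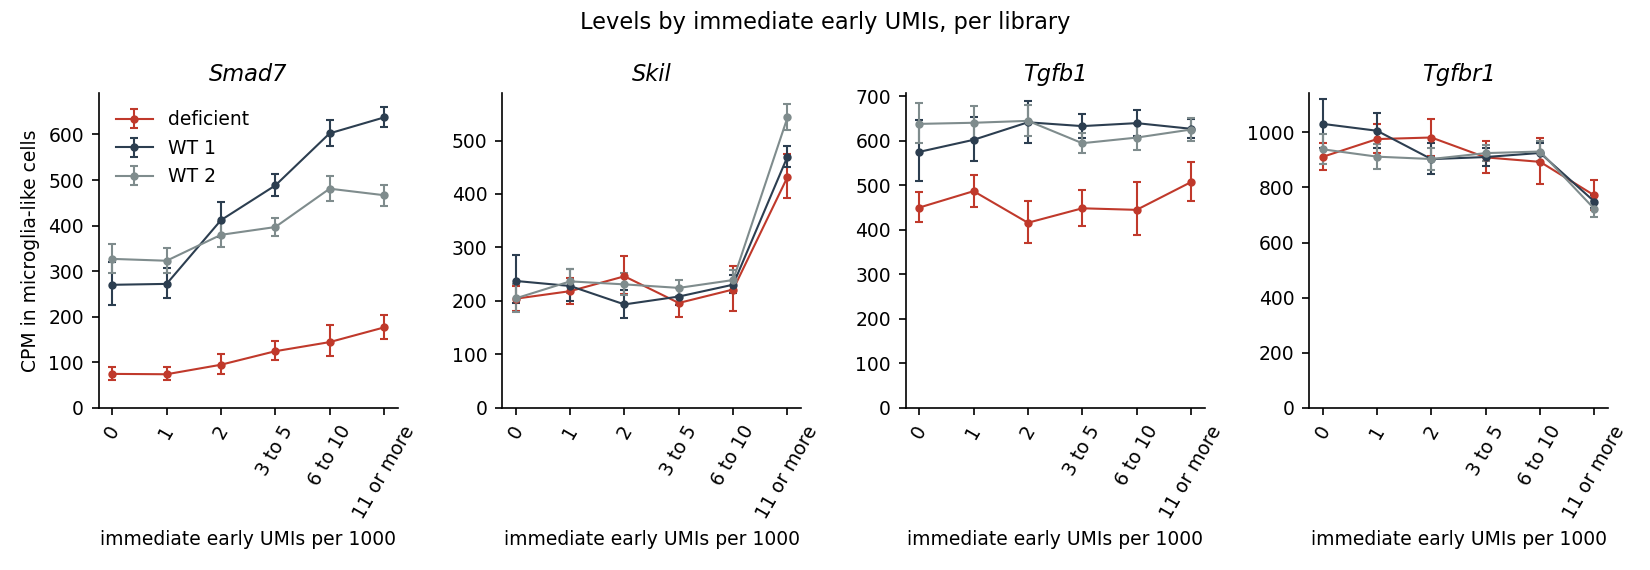
Level of Smad7, Skil, Tgfb1 and Tgfbr1 in microglia by the number of immediate early UMIs per 1000, in CPM, for the deficient, WT 1 and WT 2 libraries. Points are single libraries with exact Poisson 95% intervals, which cover counting error only. Smad7 reached 176.4 CPM in the deficient library at 11 or more UMIs, against 637.4 and 466.7 CPM in WT 1 and WT 2, and Tgfb1 in the deficient library lies under WT at every step.

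Whether the change with immediate early transcripts differed between genotypes was tested by an interaction term. None of the 10 genes was called, against 0.465% of all 9468 genes (edgeR, the only tool run for this term). An unadjusted p under 0.05 was found for 2 of the 10 genes and for 515 of the 9468 (edgeR). Itgb5 had the lowest (difference of log2 changes -0.33, adjusted p = 0.630, edgeR). Itgb5 had log2 changes of -0.39 in the deficient library, against -0.10 in WT 1 and -0.01 in WT 2. Smad3 had log2 changes of -0.61 in the deficient library, against 0.34 in WT 1 and 0.30 in WT 2 (adjusted p = 0.868 for the difference, edgeR). The term rests on 1 deficient library and 1 residual degree of freedom.

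The genes whose levels were most like those of Smad7 over the 9 sums of 3 immediate early classes in 3 libraries were Zfand5 (Pearson r = 0.984 of log2(CPM + 1)), Kctd12 (0.981), Otud1 (0.979), Trim47 (0.979) and Ier5 (0.978), among 5774 genes. Sums of 1 library share its animal and depth, so these values describe 3 libraries and carry no p. Zfand5, a zinc finger protein, was at 33.6 CPM in deficient cells without immediate early transcripts, against 208.6 and 208.8 CPM in WT. With them it was at 130.4 CPM in deficient cells, against 533.0 and 449.3 CPM in WT. Ier5, an immediate early response gene outside the list used here, was at 251.6 CPM in deficient cells with immediate early transcripts, against 1580 and 1312 CPM in WT.

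Further genes of the pathway were counted from lists, against 6.35% of all genes called lower and 1.52% called higher in deficient microglia. Of 7 tested genes of ligand latency and activation, 1 was lower and 0 higher in deficient microglia. The lower gene was Itgav, the alpha v chain that pairs with Itgb5, at 60.6 CPM in deficient cells, against 86.1 and 89.5 CPM in WT (log2 fold change -0.53, SE 0.10, adjusted p = 0.00232, edgeR). Nrros, which anchors latent TGF-beta 1 on microglia, was at 245.4 CPM in deficient cells, against 244.1 and 218.4 CPM in WT, and was not called. Itgb1 (log2 fold change -0.09), Itgb3 (0.30) and Thbs1 (-0.79) were not called either. Tgfb2, Tgfb3, Ltbp1, Itgb6 and Itgb8 were among the genes not listed in every table.

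Of 8 tested receptors of the wider family, 1 was lower and 0 higher. It was the activin receptor Acvr2b, at 10.6 CPM in deficient cells, against 21.9 and 16.4 CPM in WT (log2 fold change -0.84, adjusted p = 0.0252, edgeR). Eng, a co-receptor, was at 75.5 CPM in deficient cells, against 82.4 and 95.3 CPM in WT, and was not called, nor were Acvrl1 (-0.37) and Bmpr2 (-0.19).

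Of 10 tested Smads and cofactors, 3 were lower and 0 higher. Foxo1, a transcription factor that can act with Smads, was at 10.1 CPM in deficient cells, against 26.1 and 20.2 CPM in WT (log2 fold change -1.18, SE 0.20, adjusted p = 0.00151, edgeR). The BMP-activated Smad1 fell by 0.41 and Zfyve9, which presents Smads to the receptor, fell by 0.74 on the log2 scale. The co-activators Crebbp (0.06) and Ep300 (-0.17) and the partner Runx1 (0.03) were not called.

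Of 14 tested genes of a list of inhibitors, 2 were lower and 0 higher, but not every gene on this list is an inhibitor. Tgif1, a repressor of Smad target genes, was at 58.6 CPM in deficient cells, against 88.5 and 71.7 CPM in WT (log2 fold change -0.44, adjusted p = 0.0430, edgeR). Rnf111, a ubiquitin ligase that degrades Smad7, Ski and Skil and so favours signalling, fell by 0.40 on the log2 scale. Pmepa1, a TGF-beta induced inhibitor, was at 203.2 CPM in deficient cells, against 237.6 and 245.5 CPM in WT, and was not called (-0.24), nor were Strap (-0.12) and Fkbp1a (0.13).

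Of 8 tested TGF-beta target genes, only Cdkn1a, an inhibitor of the cell cycle, was called. It was at 46.6 CPM in deficient cells, against 82.7 and 85.5 CPM in WT (log2 fold change -0.84, SE 0.10, adjusted p = 5.25e-05, edgeR). Id2, an inhibitor of helix-loop-helix factors, was at 342.7 CPM in deficient cells, against 349.4 and 314.3 CPM in WT, and Id1 had a log2 fold change of -1.40 at 0.933 CPM in deficient cells, against 2.30 and 2.68 CPM in WT, without a call.

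Of 14 genes of adult microglial identity, among them several known to depend on TGF-beta in mice, 0 were higher and 0 lower in deficient microglia with edgeR or DESeq2. An unadjusted p under 0.05 was found for 1 of the 14 and for 2304 of all 11864 genes tested (edgeR). The median log2 fold change of the 14 genes was 0.003, against -0.0013 over all genes. P2ry12, a nucleotide receptor, was at 4106 CPM in deficient cells, against 4189 CPM in WT 1 and 4782 CPM in WT 2 (log2 fold change -0.12, SE 0.14, adjusted p = 0.708, edgeR). Csf1r, the receptor that microglia need for survival, was at 3738 CPM in deficient cells, against 3748 and 3960 CPM in WT. Olfml3, a secreted protein of microglia, was at 2522 CPM in deficient cells, against 2015 and 2250 CPM in WT (log2 fold change 0.25, adjusted p = 0.311, edgeR). This list shares genes with the markers that named the microglia.

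DESeq2 called 1 of the Smads and cofactors and 1 of the target genes lower in deficient microglia. It called no gene of the latency and activation, receptor, inhibitor and identity lists. In microglia without immediate early transcripts, edgeR called only Cdkn1a of these lists (log2 fold change -2.04, SE 0.49, adjusted p = 0.00161) and DESeq2 called none. Between 1 and 2 genes of each list had an unadjusted p under 0.05 there, as did 1002 of all 9100 genes tested (edgeR).

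Between microglia with and without immediate early transcripts, 4 of 5 tested target genes were higher in the class with them, and 0 were lower, against 4.16% and 0.993% of all genes. Among them Cdkn1a (log2 change 2.54, SE 0.17), Id2 (2.18) and Klf10 (2.05) rose. Of the 14 genes of the inhibitor list 3 rose, namely Bambi (2.28), Tgif1 (1.44) and Tgif2 (0.94). Of 10 Smads and cofactors Runx1 (0.36) rose, and of 6 genes of latency and activation Nrros (0.28). None of 8 receptors was called by edgeR or DESeq2, and 1 had an unadjusted p under 0.05, as did 1408 of all 9468 genes tested (edgeR). Of the 14 microglial identity genes Sall1, a transcription factor of microglial identity, fell by 0.24 on the log2 scale (adjusted p = 0.0444, edgeR). DESeq2 called 4 target genes and 1 gene of the inhibitor list higher, and no Smad or cofactor, no gene of latency and activation and no identity gene. Heat shock genes rose in 6 of 8, among them Hspa1a (2.54), so stress transcripts moved with this split too.

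The 10 genes were also followed in the other sorted cells, for which the deficient library held too few cells for a test. They comprised 19 deficient, 280 WT 1 and 135 WT 2 neutrophil-like cells and 4, 42 and 28 classical monocyte-like cells. There were 15, 10 and 12 non-classical monocyte-like cells, and 15, 77 and 71 cells of an unnamed cluster led by H2-Eb1, H2-Aa and Pf4. That cluster also had Mrc1 and Ms4a7, markers of border macrophages, among its leading genes, but the naming rule gave it no class. Another 2 unnamed clusters held no deficient cell, 12 WT 1 and 9 WT 2 cells led by Elane, Ms4a3 and Prtn3, and 11 WT 1 and 10 WT 2 cells led by Cd1d1, Leng1 and Mrps30. The cells led by Cd1d1 had a median of only 666 and 730.5 UMIs in WT 1 and WT 2, and neither cluster is drawn or ranked here. Intervals in brackets are exact Poisson 95% intervals, which cover counting error only and no spread between animals.

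Tgfb1 in WT was at 713.5 CPM in non-classical monocytes of WT 1 and 586.5 in those of WT 2, beside microglia at 627.9 and 618.0 CPM. It was at 434.1 and 424.3 CPM in the Pf4 cluster of WT 1 and WT 2, at 429.9 and 401.7 CPM in classical monocytes and at 106.4 and 85.5 CPM in neutrophils. The intervals of non-classical monocytes and microglia overlapped, as did those of classical monocytes and the Pf4 cluster, while neutrophils were lowest of these 5 classes. In the deficient library 6 UMIs in 15 non-classical monocytes gave 158.8 CPM [58.3 to 346].

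Tgfbr1 and Smad7 were higher in WT microglia than in the other 4 classes drawn. In the shallow cells led by Cd1d1, 10 UMIs of Tgfbr1 and 5 of Smad7 gave 896.5 and 448.2 CPM in WT 2, with intervals that reach down to 430 and 146 CPM and hold the microglial values. Tgfbr1 in WT 1 and WT 2 was at 865.1 and 879.4 CPM in microglia, 359.5 and 355.9 in the Pf4 cluster, 334.5 and 364.0 in non-classical monocytes, 105.5 and 82.0 in neutrophils and 23.2 and 48.0 in classical monocytes. Smad7 in WT 1 and WT 2 was at 151.3 and 197.5 CPM in the Pf4 cluster and at 39.3 and 24.4 CPM in neutrophils. In the deficient library no Smad7 UMI was found in 15 cells of the Pf4 cluster [0 to 59.1 CPM], a counting interval under both WT values. The WT Smad7 UMIs there came from 24 of 77 cells in WT 1 and 31 of 71 in WT 2. Itgb5 there was at 32.1 CPM [3.88 to 116] in the deficient library, against 285.0 and 219.0 CPM in WT 1 and WT 2. Skil there was at 320.6 CPM in the deficient library, against 344.2 and 334.4 CPM in WT, and was higher than in neutrophils, which had 40.0 CPM in the deficient library, against 69.7 and 87.2 CPM in WT. Microglial markers in the Pf4 cluster summed to 1875 CPM in the deficient library, against 11181 and 12663 CPM in WT, so its cells were not alike between genotypes.

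Tgfbr2 in WT was at 135.9 and 140.8 CPM in the Pf4 cluster, close to its levels in microglia, and at 42.0 and 20.9 CPM in neutrophils. Ski had 57.0 and 91.9 CPM in the Pf4 cluster of WT 1 and WT 2 and 29.5 and 38.4 CPM in neutrophils. Smad2, Smad3 and Smad4 had at most 22 UMIs in any class other than microglia in any library, and their order between classes could not be read at this depth.

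**Figure D4:**
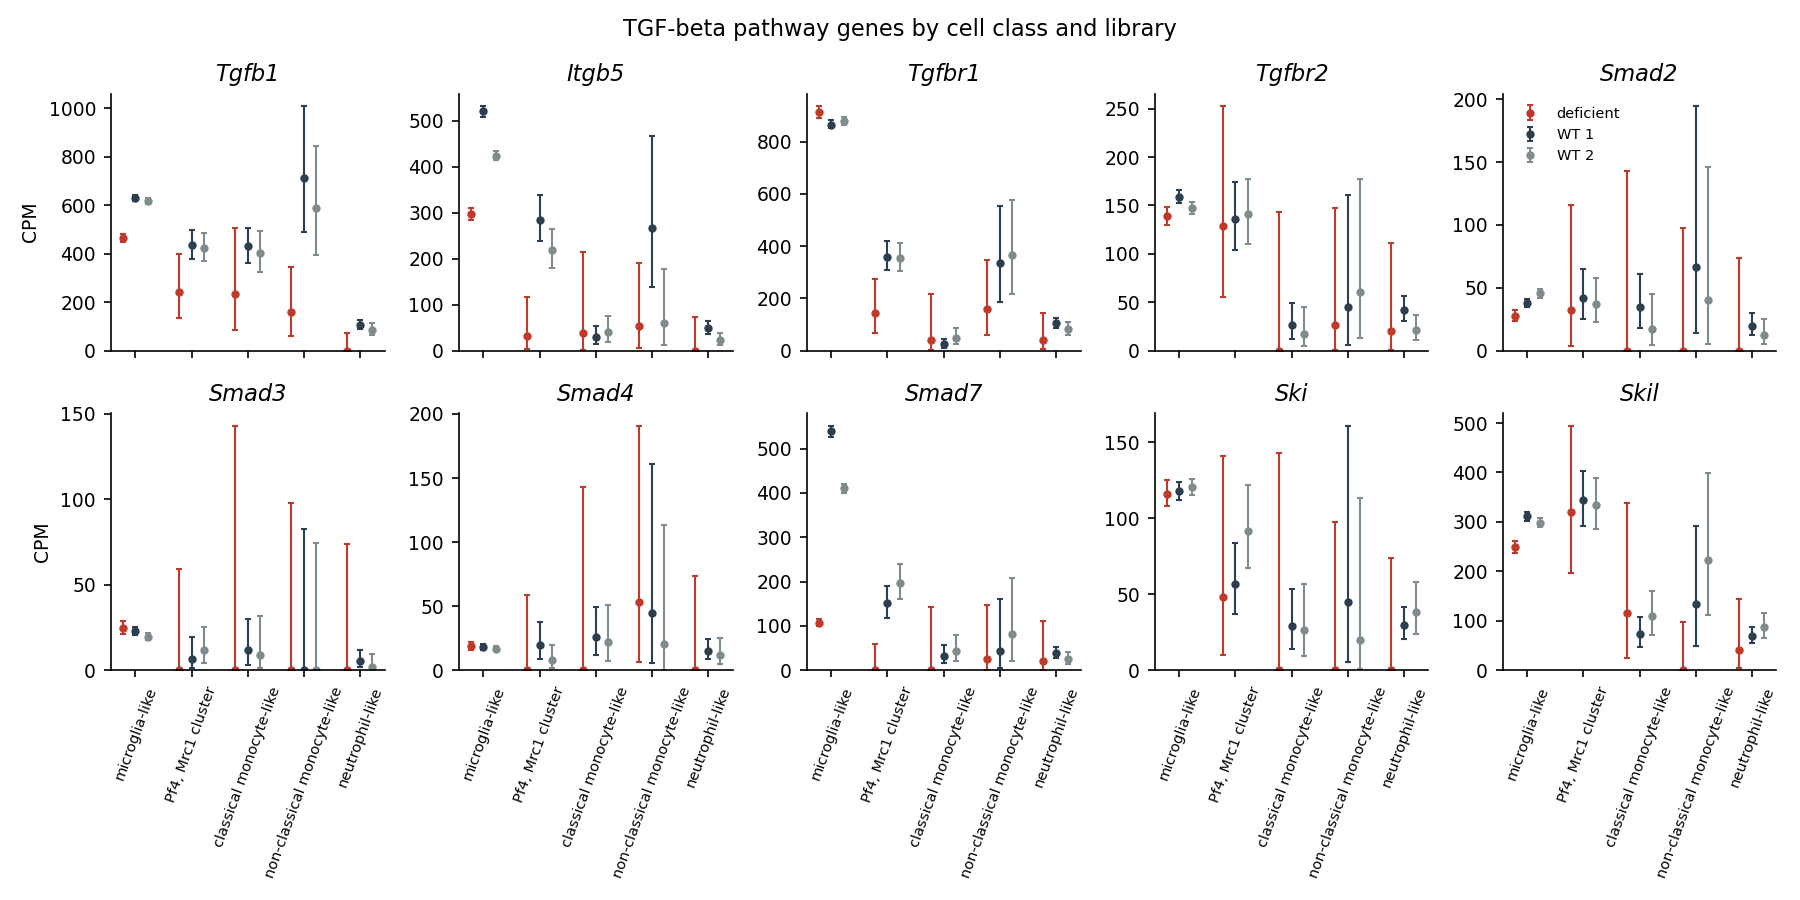
Level of each gene by cell class in the deficient, WT 1 and WT 2 libraries, in CPM, with a separate vertical scale for each gene. Points are single libraries and bars are exact Poisson 95% intervals of the summed UMIs, which cover counting error only. Tgfbr1 in microglia was at 913.4 CPM in the deficient library, against 865.1 and 879.4 CPM in WT, above the other 4 classes drawn, and the long bars of the deficient library outside microglia come from 4 to 19 cells.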

How the data were processed

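The authors deposited unnormalised UMI counts, by their values, with genes in rows and barcodes in columns and 1 table for each library. Per the labels' protocols, enzymatically digested and sorted cells went into the 10x Genomics 3' v2 kit. The submitters' processing notes name mm10, Cell Ranger 3.0 and Seurat 2.2, while the authors' own filters were not given in the sources used here. Every barcode had at least 200 genes, and almost every listed gene was found in at least 5 cells of its library, so a gene that is not listed was not measured as 0.

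Retained cells had 500 UMIs or more, 200 genes or more and a mitochondrial share of 10% or less. They were clustered by the Leiden method (leidenalg 0.10.2, resolution 1) on 30 principal components of 2000 variable genes, from log counts scaled to 10000 per cell in scanpy 1.11.5. Lists of markers gave the clusters their names. Scrublet called 28 doublets in the deficient library, 0 in WT 1 and 1 in WT 2, or 0.257% of 11264 cells, so it was taken not to have worked and no doublet was removed.

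UMIs were summed per class and library and tested with edgeR 4.0.16 (quasi-likelihood, TMM, genes passing filterByExpr, Benjamini-Hochberg at 0.05) in R 4.3.3. Deficient microglia summed to 6433271 UMIs, against 13934085 for WT 1 microglia and 15692904 for WT 2 microglia. Prior degrees of freedom were 12 in all microglia and far higher in the immediate early classes, whose small p-values therefore rest on a spread shared by all genes. In the genotype tests only the WT pair gave a measured spread, which was pooled with that of other genes. Their p-values therefore hold no measured spread between deficient animals. On counts simulated for all microglia (11864 genes), edgeR called 90.0% of genes simulated at a log2 change of -1 and 98.0% of those at 1, with 2.03% of calls false. The simulated deficient library was given the spread estimated in the fit, so the false share cannot check whether the real one varies like WT. Genes were changed by 1 or 2 log2 units, more than Tgfb1, Itgb5 and Smad2 differed in all microglia. For the class without immediate early transcripts (9100 genes) it was 44.0% and 60.0%, with 5.52% false, so a missing call there says little. Simulations for the class with them (11678 genes), for the contrast of the classes and for the interaction (9468 genes each) recovered 66.0%, 80.0% and 40.0% of genes changed by -1.

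Positions are from GENCODE release 21 for mouse, and promoters from RefSeq, which matched 6 of the 10 genes. Some genes that the naming rule takes, and the sequence of some members, are not reported here. The members, lists and tests were chosen with earlier results of these data known. Of each list, the 3 most abundant tested genes by mean CPM in microglia are named, and also the 1 whose fold change was widest. Itgav, Smad1, Zfyve9, Rnf111, Klf10 and Tgif2 were named after their values were seen. Alternatives covered tools (DESeq2 1.42.0, limma 3.58.1 voom), scaling, filters, cell sets, depth, the definition of the classes and each library left out.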

Additional observations from a re-analysis of the deposited data

How the results depend on the processing

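Smad7 was called lower in deficient microglia under each of 11 alternatives with a test, Itgb5 and Tgfb1 under 10 and Smad2 under 7. The count of lower genes among the 10 in all microglia was 2 with DESeq2 and 2 over all retained cells, in place of 4. With DESeq2 it was 1 in place of 2 in microglia without and 2 in place of 4 in those with immediate early transcripts. Quartile classes gave 3 in place of 2 in microglia without them, with Tgfb1 added to Smad7 and Itgb5. Defining the classes with the heat shock list added gave 1 gene called lower with than without, in place of 0. The cause of these changes was not tested.

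Values that changed sign belonged to genes that were not called. For Ski in all microglia the log2 fold change was 0.003 over all cells, 0.029 thinned and 0.020 with upper-quartile factors. With classes cut at quartiles of the immediate early share of each library, the values without such transcripts were 0.071 for Tgfbr1 and 0.127 for Skil, and the change with against without was 0.124 for Smad2, 0.024 for Smad3, 0.005 for Smad4 and 0.268 for Ski. With the heat shock list the change was 0.023 for Tgfbr2, 0.023 for Smad2 and 0.027 for Ski, and with DESeq2 it was 0.020 for Smad3. With each library left out in turn it ranged from -0.235 to 0.374 for Smad3, from -0.183 to 0.016 for Itgb5 and from -0.107 to 0.046 for Ski, highest without the deficient library. The genotype difference also changed sign for some genes when a WT library was left out, where no test is possible. In microglia with immediate early transcripts it reached -0.015 for Tgfbr1, 0.001 for Smad3 and 0.007 for Smad4. In those without them it reached -0.049 for Smad4 and -0.01 for Ski.

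Over all genes, 933 were called in microglia (180 higher, 753 lower), 488 with DESeq2 (55 higher, 433 lower) and 1178 with upper-quartile factors (421 higher, 757 lower), which moved the median of all genes to 0.05. In microglia without immediate early transcripts 329 were called, 76 with DESeq2 and 578 with quartile classes. In those with them 1003 were called and 367 with DESeq2. Between the classes 488 were called, 222 with DESeq2, 1711 with quartile classes and between 236 and 366 without 1 library. Without a WT library no residual spread is left for the genotype, so those values have no test. They ranged from -2.32 to -1.93 for Smad7, -0.81 to -0.52 for Itgb5, -0.44 to -0.42 for Tgfb1 and -0.70 to -0.42 for Smad2. Leaving out clusters led by Bst2 or Itgax gave no value, since no cluster was, and clusters with Ifit3 or Lpl among their leading genes were left out instead, as were doublet calls, both chosen after seeing the data. No paired analysis was possible because the labels pair no animals and only 1 library is deficient. Depth limits Smad2, Smad3 and Smad4 most, with 120 to 178 UMIs in deficient microglia.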
